A study of Mus musculus with 8 samples.

Results

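Undifferentiated spermatogonia are the germ cells at the base of the seminiferous tubule, and they include the stem cells from which spermatogenesis is renewed. The genes described here are 8 of their regulators: the transcription factors and cofactors Pax7, Foxc2, Pou5f1, Sall4, Utf1 and Neurog3, and the RNA-binding regulators Nanos2 and Nanos3. Their probes were found as the non-control array probes whose gene name in the array files is one of these 8 symbols, a rule that uses no measured value. It gave 9 probes, of the 41174 on the array, with 2 probes for Sall4 and 1 for each other gene. All 9 passed the filter on dim probes and were tested.

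RNA of whole testicular cells was measured on single-colour (Cy3) Agilent arrays in 4 wild-type samples (VRK1+/+) and 4 Vrk1 mutant samples (VRK1-/-) of male mice. Vrk1 encodes a nuclear serine/threonine kinase, and the comparison asks how testis RNA differs between the genotypes. The labels call the 4 samples of a genotype biological replicates of independent experiments. The animals behind them are not named, so p-values measure only the spread between these samples. The sources used here do not give the animals' age, strain or litter, nor what was altered in the Vrk1 gene.

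Undifferentiated spermatogonia divide as single cells and as chains that stay joined by bridges, and signals from Sertoli cells keep part of them undifferentiated while others go on to express Kit and enter meiosis under retinoic acid. Transcription factors such as Foxc2 and Pax7 mark small subsets of them, Neurog3 marks chains that are moving toward differentiation, and Nanos2 and Nanos3 bind messenger RNAs together with the CCR4-NOT deadenylase. Several of these genes also act elsewhere: Pax7 in muscle satellite cells, Foxc2 in lymphatic endothelium and mesenchyme, and Pou5f1, Sall4 and Utf1 in pluripotent cells.

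A probe's level is given as the log2 of its processed signal over the 75th percentile of the signals of its array, and a difference as mutant minus wild type on that scale. The test was limma with Benjamini-Hochberg adjustment over all 33718 probes tested, and at an adjusted p under 0.05 the mutant had 32.1% of them changed, 21.2% upward and 10.8% downward. The 75th percentile itself was 680 to 790 signal units on the wild-type and 928 to 1124 on the mutant arrays, and 73.2% to 77.5% against 83.3% to 86.5% of the features were well above background. The genotypes were on separate slides and scans, and the effects of slide and genotype therefore cannot be told apart. Of the called probes, 66.2% were higher, against 33.9% with scaling to the array median, 40.3% with normexp background correction, 54.7% with quantile normalization and 99.2% with no scaling between arrays. The median difference of all probes tested was 0.05 with the 75th percentile, -0.17 with median scaling, -0.23 with normexp and 0.52 with no scaling. The sign of a small difference therefore depends on this choice. The normexp alternative also added 50 signal units to every signal, which narrows the ratios between dim signals. Both Vrk1 probes were lower in the mutant, by -2.26 (SE 0.15, limma adjusted p = 1.65e-04) and -2.06 (SE 0.12), while well above background on all 4 mutant arrays. Markers of testis cell types were present in both genotypes, with the mean level of 8 spermatid markers at 5.96 to 6.66 and that of 15 Sertoli cell markers at 0.52 to 1.81 over the 8 arrays.

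The probes that carry the results are shown first, since each value below is the brightness of 1 such oligonucleotide of 60 bases. They are given 5′ to 3′ as the array files list them, whole or, where marked, as the first 30 bases. The positions are those of the array files, in mm7, and the annotation of exons in that build was not used here. The Pax7 probe lies on chr4:139116890-139116949 (minus strand), the Foxc2 probe on chr8:119751942-119752001 (plus strand), the Nanos3 probe on chr8:82758695-82758754 (minus strand), the Utf1 probe on chr7:136358008-136358067 (plus strand) and the Sall4 probe for the RefSeq transcript on chr2:168545326-168545385 (minus strand). The first 3 belong to the genes that passed the test, and the other two to the only member with separate genotypes in the lower direction and to the member that has a second probe.
Pax7, first 30 bases: ccttgaccccaacaggttttcccaactgtc
Foxc2, first 30 bases: cacaccaaaagactttaaaatttcaatctc
Nanos3: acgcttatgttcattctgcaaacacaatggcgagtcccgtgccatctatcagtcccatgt
Utf1: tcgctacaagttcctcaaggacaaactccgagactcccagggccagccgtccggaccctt
Sall4: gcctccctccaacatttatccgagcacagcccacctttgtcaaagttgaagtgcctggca

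Pax7, Foxc2 and Nanos3 were higher in the mutant testis, by 1.60, 1.68 and 0.87 on the log2 scale, and no member was lower. Thus 3 of the 9 probes rose, 0 fell and 6 did not pass the test, beside 21.2% of all probes tested that rose and 10.8% that fell. At an unadjusted p under 0.05 there were 4 probes, the fourth being Utf1 on the lower side. The median difference of the 9 probes was 0.18, against 0.05 for all probes tested. The genotypes did not overlap for 3 probes on the higher and 1 on the lower side, where 21.6% and 13.8% of all probes tested (35.3% in all) were separated in this way. The RNA came from mixed cells, so a different number of cells of a type and a different amount of RNA per cell cannot be told apart.

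**Figure D1:**
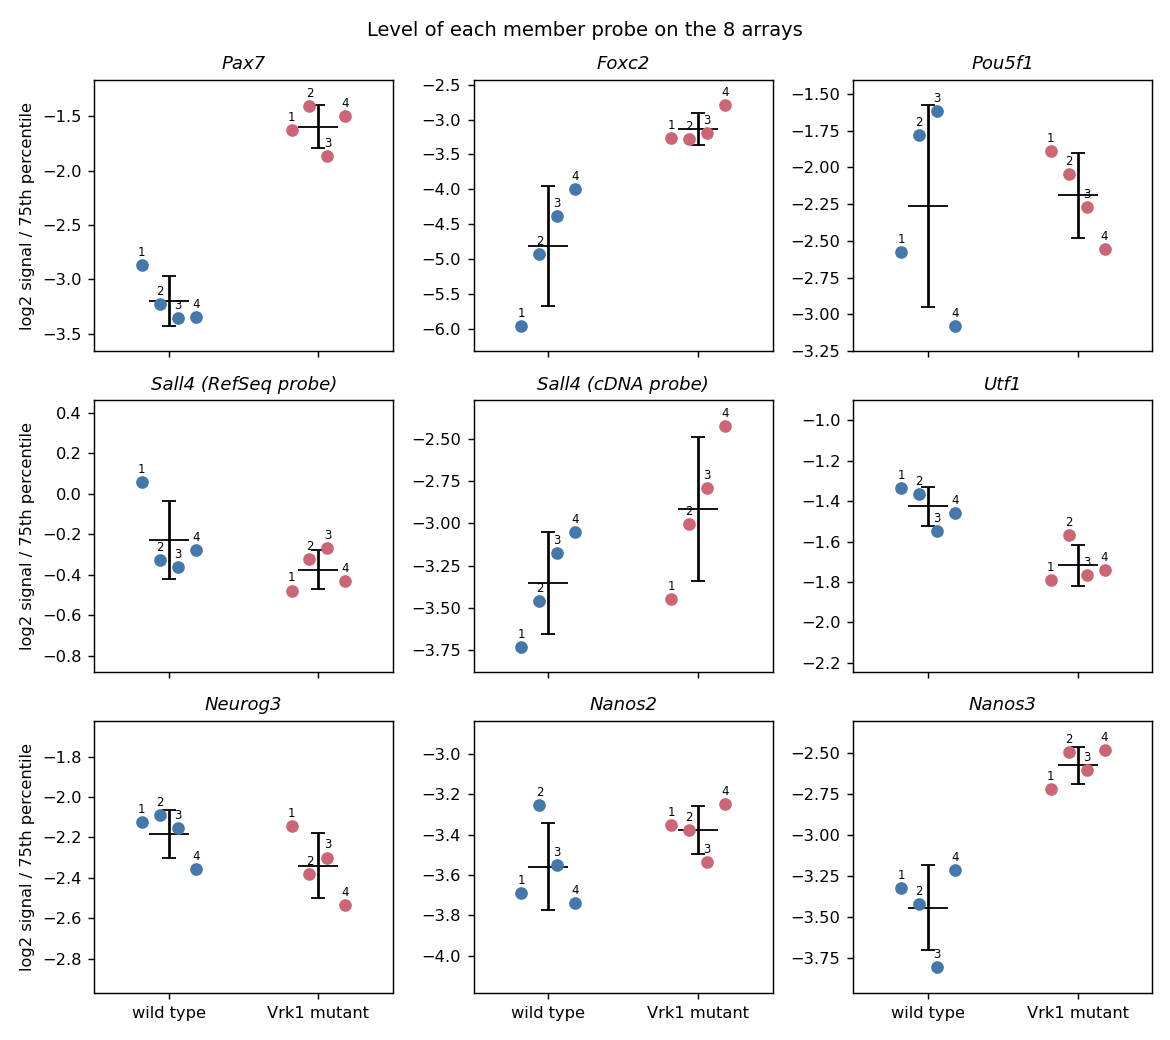
Level of each of the 9 member probes (vertical axis, log2 of the signal over the array's 75th percentile; each panel has its own range) on the 4 wild-type and 4 Vrk1 mutant arrays, numbered by replicate, with bars for the mean and SD. The mutant arrays lie above all wild-type arrays for Pax7, Foxc2 and Nanos3 and below them for Utf1, and the genotypes overlap in the other 5 panels.

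Pax7 encodes a paired-box transcription factor that marks a rare subset of spermatogonia and, outside the testis, muscle satellite cells. Its level was -2.87, -3.22, -3.36 and -3.35 on wild-type arrays 1 to 4 and -1.62, -1.40, -1.86 and -1.50 on mutant arrays 1 to 4. Every mutant array lay above every wild-type array, and the gap between the nearest arrays of the genotypes was wider than the range within either. The mean rose from -3.20 ± 0.23 to -1.60 ± 0.20 (SD, n = 4 each), which is 3.04-fold (95% interval 2.36 to 3.91; SE 0.16 on the log2 scale, limma adjusted p = 5.10e-04). The probe was well above background on all 8 arrays. It passed the test in all 23 alternatives run, with differences from 0.73 after normexp background correction (limma adjusted p = 0.0216) to 2.07 with no scaling between arrays. These alternatives are not separate checks. The series' value table repeats the same signals, and the changes of filter or floor left the difference at 1.60.

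A second probe in the same region, named in the array files only by a cDNA accession (AF454394) and so outside the rule, lies on chr4:139127248-139127307 on the minus strand. It was picked out after its values were seen. Its level was -4.17, -3.46, -3.45 and -4.19 on the wild-type arrays and -2.42, -2.22, -2.26 and -2.53 on the mutant arrays. The genotypes did not overlap, as for 21.6% of all probes tested on the higher side. The difference was 1.47 (SE 0.21). Because the probe was chosen with its values known, no p-value is given, and it does not stand as support for the Pax7 result. Whether it reads Pax7 RNA was not tested.

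Because Pax7 is also a gene of muscle satellite cells, skeletal muscle genes were read beside it. Of 7 tested skeletal muscle genes, 2 were higher and 0 lower (limma; the same counts at an unadjusted p under 0.05), with a median difference of 0.21. Among all genes, each read by its brightest probe, 21.6% were higher and 12.2% lower. The higher muscle genes were the myogenic transcription factors Myog (1.08, adjusted p = 0.00233) and Myod1 (0.59, adjusted p = 0.0157). The contractile and metabolic genes of the list did not pass, with Ckm, muscle creatine kinase, at 0.02, Acta1, skeletal muscle actin, at -0.04, the troponin gene Tnnt3 at -0.18, the myosin light chain gene Mylpf at 0.21 and the myosin heavy chain gene Myh4 at 0.36. The probe of Myf5, a factor of satellite cells and myoblasts, was not well above background on any array. The list's mean level was -3.26 to -2.95 on the wild-type and -2.99 to -2.64 on the mutant arrays. Its median difference turned to -0.25 with normexp and was -0.01 with median scaling. The part of muscle RNA in the Pax7 values was not tested.

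Foxc2, a forkhead transcription factor found in a small, slowly dividing subset of spermatogonia, had the widest spread among the members that rose. Its level was -5.95, -4.92, -4.38 and -3.99 on the wild-type arrays and -3.26, -3.28, -3.20 and -2.80 on the mutant arrays. The 4 mutant arrays lay above all wild-type arrays, with mutant array 4 the highest and apart from the others. Among the wild-type arrays, array 1 was lowest and was the only array not well above background for this probe. The mean rose from -4.81 ± 0.85 to -3.13 ± 0.23 (SD, n = 4 each), or 3.20-fold (95% interval 1.82 to 5.62; SE 0.36, limma adjusted p = 0.0099). With normexp, which added 50 signal units to every signal, the difference was 0.12 and did not pass (limma adjusted p = 0.615). The processed signals of this probe were 11 to 50 units on the wild-type and 96 to 162 on the mutant arrays. The part of the added units in the smaller difference was not tested. Without mutant replicates 1 and 4 it was 1.57 with adjusted p = 0.104.

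Foxc2 is a gene of lymphatic endothelium too, and of 10 endothelial genes tested, 3 were higher and 0 lower (limma; 3 and 1 at an unadjusted p under 0.05; median 0.32). The share over all genes was 21.6% higher and 12.2% lower. The higher endothelial genes were the adhesion genes Cdh5 (0.99, adjusted p = 0.0126) and Pecam1 (0.69, adjusted p = 0.0393) and the lymphatic receptor Lyve1 (0.42, adjusted p = 0.0422). Another Cdh5 probe gave 0.72 and did not pass (limma adjusted p = 0.164). Prox1, the lymphatic transcription factor, gave -0.54 and did not pass (adjusted p = 0.0638). Pdpn, also of the list, gave 0.09 with its brighter probe (adjusted p = 0.792) and 0.77 with the other (adjusted p = 0.0275). The list's mean level ran from -3.66 to -3.28 in wild type and from -3.29 to -2.85 in the mutant. With normexp, and without mutant replicates 1 and 4, none of the 10 was higher, and leaving out 1 array gave 1 or 2 higher. The Pecam1 probe cleared background well on 3 of 4 wild-type arrays. The part of endothelial RNA in the Foxc2 values was not tested.

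The remaining transcription regulators did not pass the test. Utf1, a chromatin-bound cofactor of pluripotent cells that is kept in undifferentiated spermatogonia, came nearest. Its level was -1.33, -1.36, -1.55 and -1.46 on the wild-type arrays and -1.79, -1.57, -1.77 and -1.74 on the mutant arrays. All mutant arrays lay below all wild-type arrays, mutant array 2 by the narrowest margin. The difference was -0.29 (SE 0.12, 95% interval -0.57 to -0.01), with an unadjusted p of 0.0422 and a limma adjusted p of 0.0967. It passed with median scaling (-0.51, adjusted p = 0.0147), quantile normalization (-0.42, 0.0371) and cyclic loess (-0.41, 0.0402), and turned to 0.18 with no scaling between arrays.

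Pou5f1, the POU-domain factor of pluripotency also called Oct4, had the widest wild-type range of the members that did not pass. Its level was -2.58, -1.78, -1.62 and -3.08 on the wild-type arrays and -1.89, -2.04, -2.27 and -2.56 on the mutant arrays. The mutant arrays lay inside the wild-type range. The difference of 0.07 (SE 0.31, limma adjusted p = 0.872) had a 95% interval of -0.63 to 0.77, or 0.648-fold to 1.71-fold.

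Sall4, a zinc finger factor needed for spermatogonial differentiation and maintenance, was read by 2 probes that gave values on opposite sides of 0. The probe for the RefSeq transcript was at 0.06, -0.33, -0.36 and -0.28 on the wild-type and -0.48, -0.32, -0.27 and -0.43 on the mutant arrays, a difference of -0.15 (SE 0.14, limma adjusted p = 0.430). The probe for a cDNA (AK017633, chr2:168541487-168541546, minus strand) was at -3.73, -3.46, -3.17 and -3.05 against -3.44, -3.01, -2.79 and -2.42, a difference of 0.44 (SE 0.23, adjusted p = 0.170). Both sets overlapped between the genotypes. Within genotypes the deviations of the 2 probes from their group means had a correlation of -0.30 over the 8 arrays, given as a description.

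Neurog3, a basic helix-loop-helix factor of spermatogonia that are leaving the stem cell state, was at -2.12, -2.09, -2.15 and -2.35 in wild type and -2.14, -2.38, -2.30 and -2.53 in the mutant. The genotypes overlapped. The difference was -0.16 (SE 0.14, limma adjusted p = 0.383), with a 95% interval of -0.46 to 0.15.

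The RNA-binding pair differed from each other in their calls. Nanos3, which is expressed in undifferentiated and early differentiating spermatogonia, was at -3.32, -3.42, -3.81 and -3.21 on the wild-type and -2.72, -2.49, -2.60 and -2.48 on the mutant arrays. The genotypes were separate, with mutant array 1 lowest among the mutant and wild-type array 3 lowest of all. The mean rose from -3.44 ± 0.26 to -2.57 ± 0.11 (SD, n = 4 each), or 1.83-fold (95% interval 1.43 to 2.33; SE 0.16, limma adjusted p = 0.00502). The difference was 0.17 with normexp (adjusted p = 0.468), and 0.90 without mutant replicates 1 and 4, with adjusted p = 0.0548.

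Nanos2, which holds stem spermatogonia in the undifferentiated state and represses meiotic messages, was at -3.69, -3.26, -3.55 and -3.74 in wild type and -3.35, -3.38, -3.53 and -3.25 in the mutant. Wild-type array 2 reached into the mutant range. The difference was 0.18 (SE 0.15, limma adjusted p = 0.359), with a 95% interval of -0.15 to 0.51, and it was below 0 with normexp (-0.22), median scaling (-0.04), quantile normalization (-0.13) and cyclic loess (-0.14). Whether Nanos3 and Nanos2 differed in their response was not tested.

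The upstream sequences of Pax7, Nanos3 and Nanos2 are shown so that 2 genes that rose and a paralogue that did not pass can be read together. They are the 250 bases before the gene's start, 5′ to 3′ on the gene's strand, from RefSeq with GRCm38.p6 coordinates, and 6 of the 8 members had an entry. The Pax7 stretch is chr4:139832969-139833218 (minus strand), the Nanos3 stretch chr8:84176553-84176802 (minus strand) and the Nanos2 stretch chr7:18987274-18987523 (plus strand). Capitals mark matches on either strand to the TATA box TATAAA, the CCAAT box CCAAT, the GC box GGGCGG and the E-box CANNTG.
Pax7: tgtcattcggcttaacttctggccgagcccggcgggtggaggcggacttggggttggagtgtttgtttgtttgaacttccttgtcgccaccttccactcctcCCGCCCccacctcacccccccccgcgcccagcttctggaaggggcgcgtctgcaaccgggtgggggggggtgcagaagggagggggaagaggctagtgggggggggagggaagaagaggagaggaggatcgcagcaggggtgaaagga
Nanos3: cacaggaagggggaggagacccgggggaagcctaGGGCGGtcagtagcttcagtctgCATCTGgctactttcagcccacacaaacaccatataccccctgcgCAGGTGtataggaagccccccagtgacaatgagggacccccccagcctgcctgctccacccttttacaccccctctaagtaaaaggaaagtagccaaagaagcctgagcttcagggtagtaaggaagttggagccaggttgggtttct
Nanos2: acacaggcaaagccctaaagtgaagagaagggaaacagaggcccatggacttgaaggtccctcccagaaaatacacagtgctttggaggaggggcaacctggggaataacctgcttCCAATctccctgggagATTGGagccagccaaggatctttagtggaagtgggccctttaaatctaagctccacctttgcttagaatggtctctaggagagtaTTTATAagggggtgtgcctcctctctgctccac

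The Pax7 stretch held 1 GC box, at -148 from the start. The Nanos3 stretch held 1 GC box, at -216, and 2 E-boxes, at -193 and -148. The Nanos2 stretch held 1 TATA box, at -33, and 2 CCAAT boxes, at -134 and -118, and none of these motifs shared bases with another. Of 32851 promoter stretches of this length, 12.4% held the TATA box, 33.8% the CCAAT box, 32.7% the GC box and 66.2% the E-box. The octamer ATGCAAAT, the letters that POU factors read, and the forkhead letters GTAAACA, searched on both strands as well, stood in 1.6% and 3.2% of them and in no stretch of the 6 members. A match is a description of letters and not of a bound site.

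**Figure D2:**
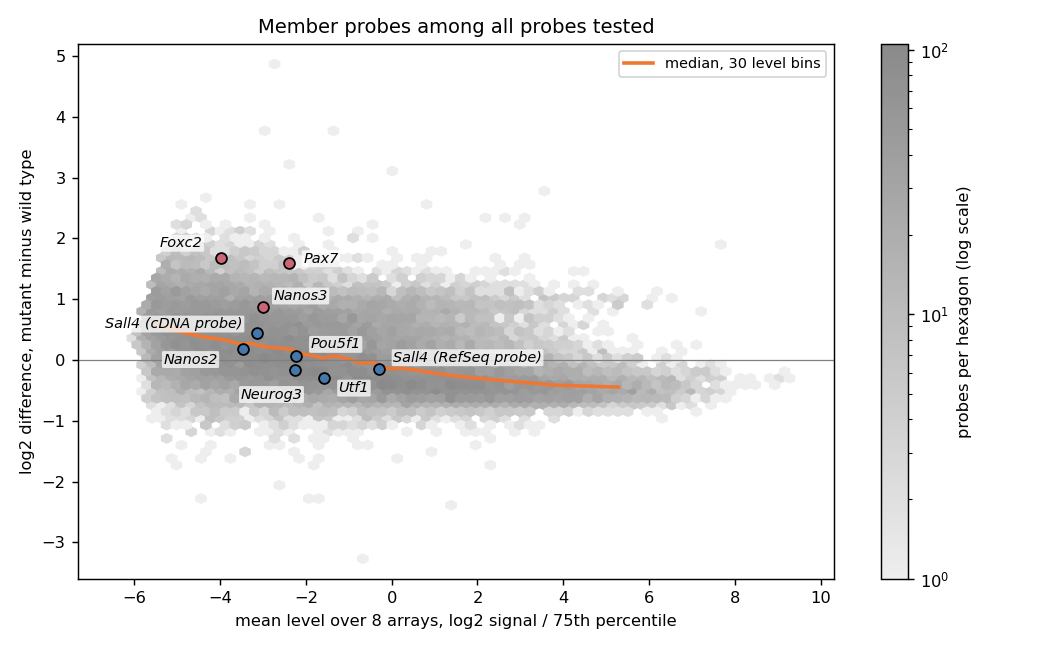
Difference between genotypes (vertical axis, log2) against mean level over the 8 arrays (horizontal axis, log2 of the signal over the 75th percentile) for all 33718 probes tested, shaded by probes per hexagon on a log scale, with the median in 30 level bins as a line. The member probes are circles, red where the adjusted p was under 0.05 and blue otherwise; Pax7 and Foxc2 lie well above the line, and Utf1 and Neurog3 below it.

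The difference between genotypes shifted with the level of a probe over the whole array, so the members were also read beside probes of like brightness. Of 3 equal bands of mean level, the dimmest had a median difference of 0.38, with 30.8% of its probes higher and 3.23% lower. It held Foxc2, Nanos2, Nanos3 and the cDNA probe of Sall4. The middle band had a median of 0.08, with 21.1% higher and 7.02% lower, and held the other 5 member probes. In the brightest band, which held no member, 11.8% were higher and 22.3% lower. Set against their band's median, the differences of Pax7 (1.60) and Foxc2 (1.68) were over 1 log2 unit larger, that of Nanos3 (0.87) was larger by less than that, and that of Nanos2 (0.18) was smaller.

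**Figure D3:**
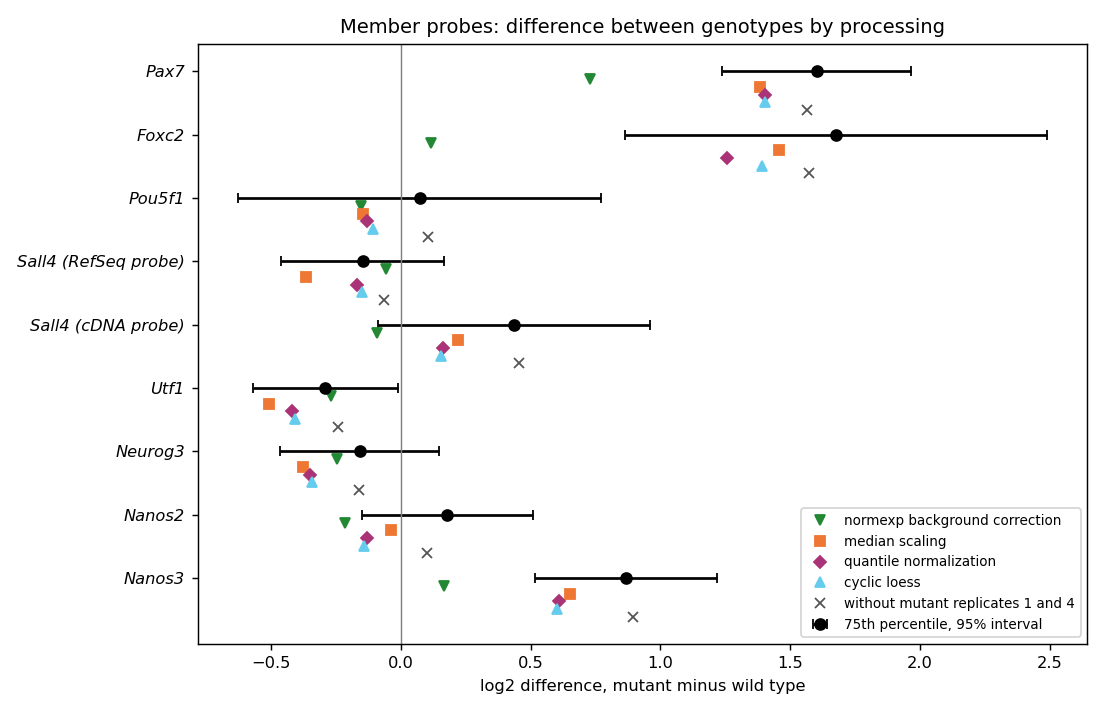
Difference between genotypes of each member probe (horizontal axis, log2, mutant minus wild type) with its 95% interval under scaling to the 75th percentile, and the values under 5 alternatives as separate marks. Pax7 stays right of 0 under all of them, Foxc2 and Nanos3 fall to 0.12 and 0.17 with normexp, and Pou5f1 and Nanos2 lie on either side of 0.

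Epididymal transcripts set 2 of the mutant arrays apart. The mean level of 4 epididymal genes (the secreted protein genes Crisp1, Spink8 and Ltf, and Cd52) was 2.69 and 1.82 on mutant arrays 1 and 4, -1.67 and -2.45 on mutant arrays 2 and 3, and -4.06 to -3.18 on the wild-type arrays. The other 4 genes of that list, Lcn5, Lcn8, Defb42 and Adam7, had no probe that passed the filter. Pax7 was at -1.62 and -1.50 on mutant arrays 1 and 4 and at -1.40 and -1.86 on arrays 2 and 3, and without arrays 1 and 4 its difference was 1.57 (adjusted p = 0.0201). The Foxc2 and Nanos3 differences without these arrays were 1.57 and 0.90, and neither passed the test with the 2 mutant arrays left.

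**Figure D4:**
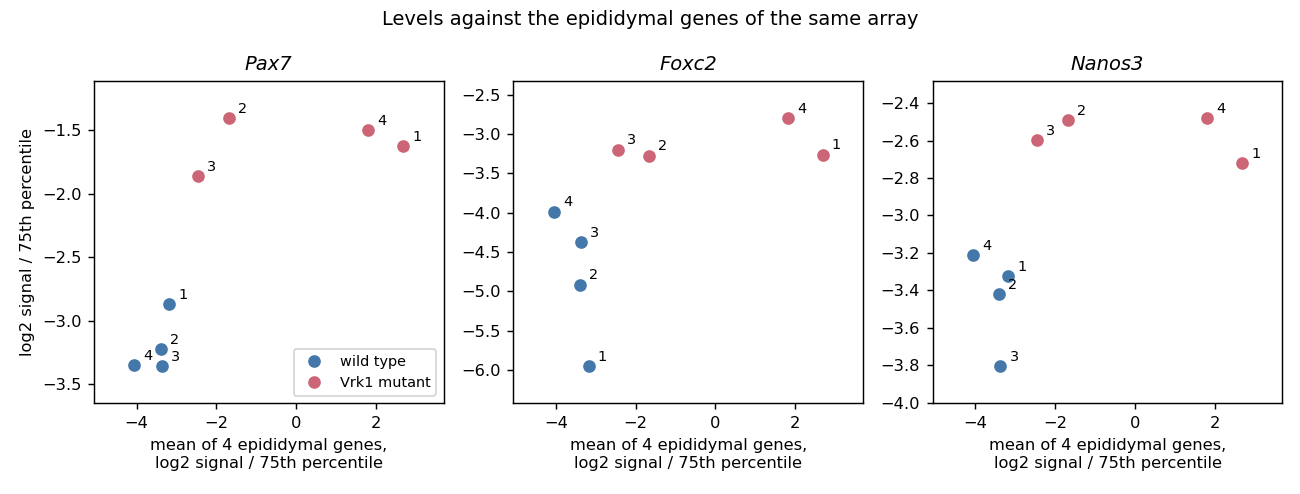
Level of Pax7, Foxc2 and Nanos3 (vertical axes) against the mean level of 4 epididymal genes on the same array (horizontal axes), both as log2 of the signal over the 75th percentile, for 4 wild-type and 4 Vrk1 mutant arrays numbered by replicate. Mutant arrays 1 and 4 stand apart on the horizontal axis at 2.69 and 1.82, while on the vertical axes the 4 mutant arrays lie above the wild-type arrays. For Foxc2, mutant array 4 lies above the other mutant arrays.

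Other genes known from undifferentiated spermatogonia were followed through a list of 24, of which 20 were tested. No probe carried the name of Zbtb16 or Rhox10, and the probes of Eomes and Upp1 did not pass the filter. Of the 20 genes, 9 were higher, 0 lower and 11 did not pass (limma; 10 higher and 1 lower at an unadjusted p under 0.05), with a median difference of 0.42, beside 21.6% of all genes higher and 12.2% lower when each is read by its brightest probe. The laminin receptor subunit Itga6 was 1.68 higher (SE 0.22, limma adjusted p = 0.00156), with all 3 of its probes called. Etv5, an ETS factor induced by GDNF, was 0.91 higher (SE 0.14, adjusted p = 0.00283) with its brighter probe and at 0.86 with the other, which did not pass (adjusted p = 0.0755). The tetraspanin Tspan8 was 0.80 higher (SE 0.18, adjusted p = 0.0105) and the zinc finger factor Egr2 0.76 higher (SE 0.18, adjusted p = 0.0126). Lin28a, Piwil4, Foxo1, T and the GDNF receptor kinase Ret made up the rest, with differences from 0.45 to 0.66, the Ret probe being well above background on 2 of 4 wild-type arrays. Lin28a, Piwil4, T and Ret lie in the dimmest band of probes, where 30.8% were higher and the median was 0.38. Etv5 and Egr2 lie near that band's upper limit of -2.94. Tspan8 lies in the middle band (21.1% higher), and Itga6 and Foxo1 lie in the brightest (11.8% higher).

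Among the list's genes that did not pass, Gfra1, the GDNF co-receptor, gave -0.19 with its brighter probe (adjusted p = 0.472) and 0.42 with the other (adjusted p = 0.0408). Id4, an inhibitor of helix-loop-helix factors in stem spermatogonia, gave -0.59 (adjusted p = 0.0817). The tetraspanin Cd9 gave 0.31 with its brighter probe (adjusted p = 0.0969) and 1.54 with another (adjusted p = 0.00123). The list's median was -0.15 with normexp, with 2 genes higher, and 0.21, 0.14 and 0.22 with median scaling, quantile normalization and cyclic loess, with 4 genes higher in each and 2, 1 and 1 lower. Without mutant replicate 3, 5 genes of the list were higher, and 6 were without wild-type replicate 3, mutant replicate 1 or mutant replicate 4. Without any other single array 8 or 9 were higher, and the medians ran from 0.38 to 0.48. Without mutant replicates 1 and 4 together the median was 0.35 and 2 genes were higher.

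Of 8 tested paralogues of the members, 2 were higher, 1 lower and 5 did not pass, with a median of 0.15. These shares are near those of all genes, of which 21.6% were higher and 12.2% lower. Sall1 and Sall2, zinc finger relatives of Sall4, were higher by 0.62 (SE 0.15, limma adjusted p = 0.014) and 1.18 (SE 0.37, adjusted p = 0.0371). Neurog1, the relative of Neurog3, fell by 0.51 (SE 0.16, adjusted p = 0.04). Foxc1, the relative of Foxc2, gave 0.46 (adjusted p = 0.315), with 1 of 4 wild-type arrays well above background, and Pax3, the relative of Pax7, gave -0.28 (adjusted p = 0.314). Nanos1 gave 0.03 with its brighter probe (adjusted p = 0.928) and 0.87 with the other (adjusted p = 0.00553). No paralogue was higher with normexp, median scaling, quantile normalization or cyclic loess, and with 1 array left out the counts were 1 or 2 higher and 0 or 1 lower.

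Of 14 tested RNA-binding and deadenylase partners of the NANOS proteins, 1 was higher, 1 lower and 12 did not pass, with a median of -0.16, when each is read by its brightest probe. Read in the same way, 21.6% of all genes were higher and 12.2% lower. Pum2, an RNA-binding protein that pairs with NANOS proteins, was higher by 0.66 with its brightest probe (SE 0.15, limma adjusted p = 0.0132), while 0.13 and 0.28 came from its other probes, neither of which passed. Cnot1, the scaffold of the CCR4-NOT deadenylase, fell by 0.51 (SE 0.16, adjusted p = 0.0367) with its brightest probe, and gave -0.38 with each of the others, which did not pass. Probes of Cnot4, a ubiquitin ligase of the complex, disagreed: the brightest gave -0.22 and did not pass (adjusted p = 0.462), while of its other 4 tested probes 1 was higher (1.39, SE 0.16, adjusted p = 8.81e-04) and 1 lower (-0.50, SE 0.15, adjusted p = 0.0328). Dnd1, the germ cell partner of NANOS2, gave -0.31 (adjusted p = 0.131). None of the 14 was lower with quantile normalization or cyclic loess, and without mutant replicates 1 and 4 none passed in either direction.

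Of 12 tested genes that act with Pou5f1 and Sall4 in pluripotent and primordial germ cells, 2 were higher, 2 lower and 8 did not pass, with a median of -0.13, beside 21.6% of all genes higher and 12.2% lower. Mycn, a MYC family factor, was higher by 0.92 with one probe (SE 0.14, limma adjusted p = 0.0027) and gave 0.12 with the other. Lin28a, which blocks maturation of let-7 microRNAs, was higher by 0.58 (SE 0.16, adjusted p = 0.0207). Dppa2 fell by 0.42 (SE 0.12, adjusted p = 0.0273). Zfp42, also called Rex1, fell by 0.85 with its brighter probe (SE 0.26, adjusted p = 0.0337), while the other gave -0.94 and did not pass (SE 0.85, adjusted p = 0.406). Myc gave -0.24 with its brightest probe and did not pass (adjusted p = 0.367). Its other probes were higher, by 0.58 (adjusted p = 0.0246) and 0.95 (adjusted p = 0.018). The Nanog probe was well above background on 4 of 4 mutant arrays and 0 of 4 wild-type arrays, so its wild-type level is only a bound, and it is given no difference here. It passed the filter through the mutant arrays alone, and it is still counted among the 12 tested genes and in their median. The probes of Sox2, Dppa3 and Prdm1 did not pass the filter. With normexp 1 gene of this list was lower and none higher, and with 1 array left out the number lower ran from 0 to 4.

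Of 11 tested genes of spermatogonial differentiation and meiotic entry, 2 were higher and 3 lower, with a median of -0.15. The share over all genes was 21.6% higher and 12.2% lower. Kit, the stem cell factor receptor that differentiating spermatogonia switch on and that Leydig cells also express, was 0.94 higher (SE 0.15, limma adjusted p = 0.00342). Ccnd2, the D-type cyclin of the same transition, was 0.93 higher (SE 0.28, adjusted p = 0.0319). The meiotic cohesin Rec8 fell by 0.63 (SE 0.15, adjusted p = 0.0147), and Dmrtb1, which controls the switch to meiosis, fell by 0.66 (SE 0.21, adjusted p = 0.0366). The homeobox gene Esx1 was lower as well, at -0.42 (adjusted p = 0.0421). Rec8, Dmrtb1 and Esx1 lie in the brightest band of probes, where 22.3% were lower and 11.8% higher. Stra8, the retinoic acid target of meiotic entry, gave -0.16 (adjusted p = 0.638). None of these genes was lower with quantile normalization or cyclic loess, and none passed without mutant replicates 1 and 4.

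**Figure D5:**
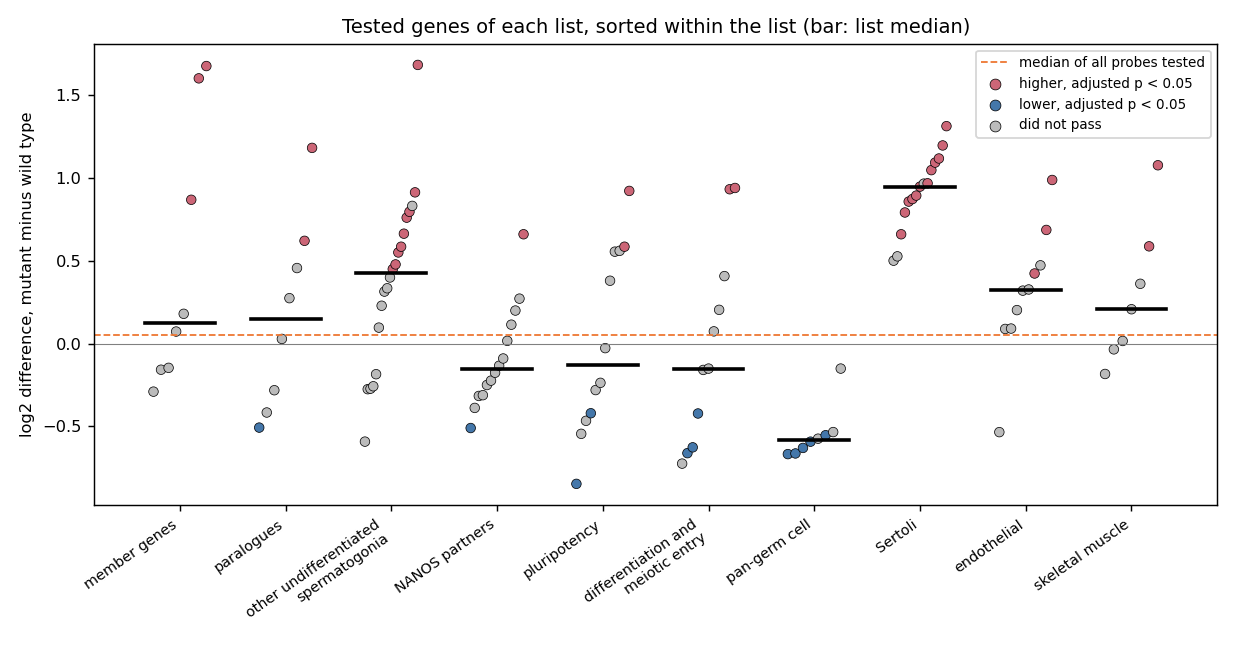
Difference between genotypes (vertical axis, log2, mutant minus wild type) of each tested gene in 10 lists, sorted within a list, with a bar at the list's median and a dashed line at the median of all probes tested. The Nanog point of the pluripotency list rests on a wild-type level that is only a bound. Higher calls stand in every list except the pan-germ cell list. Lower calls stand in the lists of paralogues, NANOS partners, pluripotency and differentiation, and in the pan-germ cell list, where 5 of 8 genes fell.

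Markers of other cells in the sample moved with the genotypes as well. Their counts stand beside 21.6% of all genes higher and 12.2% lower, each gene read by its brightest probe. Of 8 pan-germ cell markers, 5 were lower and 0 higher (median -0.58, mean level 4.22 to 4.43 in wild type and 3.42 to 4.15 in the mutant), and 4 of 8 spermatocyte and 3 of 8 spermatid markers were lower. The pan-germ cell markers lie in the brightest band of probes, where 22.3% were lower and 11.8% higher, with a median difference of -0.29. With quantile normalization or cyclic loess 0 of the pan-germ cell markers passed, and none did without mutant replicates 1 and 4, where the list's median was -0.31. The number lower was 2 without wild-type replicate 2, mutant replicate 1 or mutant replicate 4, and 3 without wild-type replicate 3. Of 15 Sertoli cell markers, 12 were higher (median 0.95, mean level 0.52 to 0.91 in wild type and 1.31 to 1.81 in the mutant), as were 4 of 7 Leydig cell and 7 of 8 macrophage markers. Leaving out 1 array lowered the Leydig cell count to 1 (wild-type replicate 2 or 3, mutant replicate 1 or 3) or 2 (mutant replicate 4). It lowered the macrophage count to 2 (wild-type replicate 2, mutant replicate 3 or 4) or 3 (wild-type replicate 3, mutant replicate 1), and normexp and median scaling also gave 2 macrophage calls. The mean level of the macrophage markers was -1.82 on mutant array 2 and -1.83 on wild-type array 4, and the other mutant arrays lay higher. The Cd163 probe, 1 of the 7 macrophage calls, was well above background on 1 of 4 wild-type arrays. Where all 8 arrays had to be well above background, 6 macrophage markers were higher. Without mutant replicates 1 and 4, where calls over all probes fell from 10815 to 1540, 3 Sertoli, 1 Leydig cell and 0 macrophage markers were called higher, with medians of 0.79, 0.91 and 0.54 against 0.95, 0.97 and 0.94 with all arrays. Of 6 peritubular myoid markers 0 passed the limma test, also at an unadjusted p under 0.05, with a median of -0.04. The part of these cell types in the values of Pax7, Foxc2 and Nanos3 was not tested.

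The genes whose levels ran most like those of each member over the 8 arrays were looked up among 13874 named genes well above background on every array. These likenesses describe 8 arrays that share slides by genotype and, for the called members, hold the genotype difference itself. For Pax7 they were Ces2b, a carboxylesterase gene (r = 0.996, own difference 1.32), and the olfactory receptor gene Olfr1211 (r = 0.995, own difference 1.49). For Nanos3 they were the olfactory receptor gene Olfr656 (r = 0.995) and the organic anion transporter gene Slco1a5 (r = 0.995). For Foxc2 they were Mzt1 (r = 0.991) and Hip1 (r = 0.987), and for Utf1 they were the adrenergic receptor gene Adrb1 (r = 0.985) and Rnf32 (r = 0.983). For Pou5f1 they were Tafa3 and Trp53inp2 (r = 0.972 and 0.97), for Neurog3 Eif2s3x and Epcam (r = 0.95 and 0.947), and for Nanos2 Ppargc1b and Adat1 (r = 0.952 and 0.943). The RefSeq probe of Sall4 ran most like Marco and Ccdc127 (r = 0.991 and 0.983), and its cDNA probe most like Clic6 and Syt9 (r = 0.975 and 0.969).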

How the data were processed

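Per the labels' protocols, total RNA of whole testicular cells was extracted with Trizol and labelled with Cy3 from 0.5 ug. Per the submitters' processing notes, Agilent Feature Extraction 9.5.3.1 was used. The deposited intensity is the processed signal. Per the file headers, it was corrected for background and detrended inside each array and left unscaled between arrays. The series' value table repeats the deposited intensity in all 45018 features. Deposited mean and local background intensity values served the normexp alternative, which had an offset of 50 signal units and no floor.

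Each array's signals were scaled to their 75th percentile (controls left out), floored at 0.0144 of that percentile and put on the log2 scale. Outlier spots were dropped and spots of a probe averaged. The 33718 probes that cleared background on 4 or more of 8 arrays, with 3 or more values per genotype, entered lmFit and eBayes of limma 3.58.1 (R 4.3.3), two-sided, with genotype alone and Benjamini-Hochberg adjustment. The procedure was tested on simulated data. In lists a gene is its tested probe with the highest mean level.

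Named are all members with every probe, Vrk1, for each list up to 4 tested genes of smallest p, with others as examples, and for each member probe the 2 genes of highest Pearson r. The members, lists and tests were chosen with earlier results of these data known. Probe coordinates are mm7. The alternatives covered background correction, scaling, filter, floor, outlier spots, source of values, array weights, a replicate block and arrays left out; no scaling between arrays was added after seeing the data. The number of arrays limits the precision.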

Additional observations from a re-analysis of the deposited data

Results flagged for a closer look

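Foxc2 on the mutant arrays was picked out because 1 array stood far from the other 3. Mutant array 4 was at -2.80, and the others lay between -3.20 and -3.28, so its gap to the nearest was 0.837 of the range of the group, above Dixon's 95% critical value for 4 arrays. By chance about 1 in 20 groups is picked out in this way, and 18 groups of member values were looked at. Without mutant array 4 the Foxc2 call held, as it did in each of the 8 fits that left out 1 array, with differences from 1.29 to 1.95. Mutant array 4 was also 1 of the 2 arrays with high epididymal transcripts, and the part of these in the value was not tested.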

How the results depend on the processing

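Of the 9 member probes, 3 were higher under the settings run, except with normexp (1), leaving out mutant replicates 1 and 4 (1), array weights (4), the replicate block (4) and no scaling (5), and 2 where all 8 arrays had to be well above background, which left Foxc2 untested. The number lower rose from 0 to 1, the Utf1 probe, with median scaling, quantile normalization, cyclic loess, no filter, the floor doubled or array weights. Over all probes, 2092 were higher (5189 in both directions) with normexp, 4491 higher and 8768 lower with median scaling, 4313 higher with quantile normalization, 8424 lower (18613 in both directions) with array weights, 16038 higher and 124 lower with no scaling, and 1320 higher and 220 lower (1540 in all) without mutant replicates 1 and 4. Leaving out 1 array gave 4782 to 7351 higher, 1664 to 4412 lower and 6446 to 11763 in all, with the number lower at 1794 and 1686 without wild-type replicate 2 or 3 and at 1767, 1664 and 1980 without mutant replicate 1, 3 or 4. Signs turned for members that did not pass: Pou5f1 to -0.15 (normexp), -0.15 (median), -0.13 (quantile), -0.11 (loess), -0.39 (weights) and -0.20 to 0.29 with 1 array left out; Nanos2 to -0.22, -0.038, -0.13 and -0.14 (normexp, median, quantile, loess); the Sall4 cDNA probe to -0.091 (normexp); the Sall4 RefSeq probe to 0.00069 (weights) and 0.32 (no scaling); Utf1 to 0.18 and Neurog3 to 0.31 (no scaling). The cause of these moves was not tested. The replicate number is the place on the slide, and same-numbered arrays correlated at 0.279, 0.235, 0.0903 and 0.609 in their deviations from the group means, with array 3 not closest to its own number and the others closest to theirs. The main test used genotype alone and left this structure out, and whether the numbers pair the samples was not settled. With the replicate block 5913 probes were lower (15155 in both directions), and the Sall4 cDNA probe passed (0.44, adjusted p = 0.0275).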
